A study of Mus musculus with 24 samples.

Results

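The entries mmu-mir-3060, mmu-mir-5126 and mmu-mir-5100 are 3 mouse microRNA hairpins, described here with their mature entries in the RNA of cauda epididymosomes. They were chosen by name from the 1234 hairpin entries (reference length over 35 bases) of a miRNA table of 3212 entries. Their many reads in these same libraries drew attention to them, so their abundance is given as a description and without a test. They ranked 6, 7 and 10 among the hairpins by reads over all libraries. Their mature entries number 4, because mir-3060 has an entry for each arm and the others have a single entry each.

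Epididymosomes are vesicles released into the lumen of the epididymis, where sperm mature and are stored. The study prepared vesicle RNA from both caudae of male C57BL/6J mice that were 7 to 8 weeks old at the start of a 6 week exposure through implanted osmotic pumps. The vehicle was 50% DMSO in all groups, and control mice received it alone. The exposed groups received 2.5 mg/kg/day of DBP (dibutyl phthalate), 2.5 mg/kg/day of DEHP (di(2-ethylhexyl) phthalate), or a mixture with 2.5 mg/kg/day of both. There were 6 libraries per group in 4 groups, and nothing in the labels says that mice were pooled. Per the labels, sperm were spun down first, and vesicles were then captured with a membrane kit from the remaining wash of the incised tissue.

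A microRNA hairpin is a folded stretch of a longer transcript. Drosha cuts it out in the nucleus and Dicer removes its loop, which leaves a short duplex. One strand, the mature miRNA, is loaded into an Argonaute protein and pairs with target mRNAs mainly through its seed, the bases near its 5′ end. A library rich in processed miRNAs therefore holds reads that lie on the mature stretch. These tables list hairpin and mature sequences as separate entries, and the sources used here do not give how the authors' counting placed a read that matches both.

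The sequences below, from RefSeq on GRCm38.p6, show what the entries hold. The hairpin of mir-5126 is not printed. In the hairpins the capitals mark the mature arms, and in the mature miRNAs they mark the seed, bases 2 to 8 from the 5′ end.
mmu-mir-3060: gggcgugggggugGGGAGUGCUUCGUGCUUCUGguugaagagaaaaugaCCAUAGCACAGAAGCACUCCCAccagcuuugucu
mmu-miR-3060-5p: gGGAGUGCuucgugcuucug
mmu-miR-3060-3p: cCAUAGCAcagaagcacuccca
mmu-miR-5126: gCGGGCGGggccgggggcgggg
mmu-mir-5100: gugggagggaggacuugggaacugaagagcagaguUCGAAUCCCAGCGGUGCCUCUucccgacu
mmu-miR-5100: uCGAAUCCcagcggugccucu

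The 3 hairpins share little sequence. The longest run in common between any pair was 5 to 7 bases, and no other mouse mature miRNA in the RefSeq table had any of the 4 seeds. The arms of mir-3060 were complementary over an unbroken run of 11 bases. The longest such run was 6 bases between miR-5126 and the rest of its hairpin, and 5 bases for miR-5100.

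Base composition set mir-5126 apart. Its mature sequence is 100% G and C, and its 77-base hairpin is 83.1% G and C, above 99.8% of the 1005 mouse hairpins in the RefSeq table. The hairpins of mir-3060 and mir-5100 were at 55.4% and 59.4%, against a median of 51.7%. The mir-5100 hairpin also holds the letters GUUCGANUC, the conserved stretch of the T arm of tRNAs. They begin at base 34 and overlap the start of the mature stretch at base 36. No other of the 1005 hairpins had them on either strand, a share of 0.0995%. The motif was searched after the sequence had been seen, and a match of letters does not show where a read came from.

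In GENCODE M21 on GRCm38, mir-3060 lies at chr11:4139364-4139446 on the plus strand, in intron 5 of Rnf215, a gene for a RING finger protein, 293 bases from the nearest exon. The mir-5100 hairpin lies at chr11:60728663-60728726 on the plus strand, in intron 1 of Mief2, which encodes a mitochondrial dynamics protein, 96 bases from the nearest exon. The mir-5126 hairpin lies at chr1:84695839-84695915 on the plus strand, opposite exon 1 of Dner, a gene for a Notch-related transmembrane protein, within its untranslated part. Because the counting strand is not given, reads of mir-5126 and of exon 1 of the Dner transcript itself cannot be told apart. The lncRNA, circRNA and otherRNA tables had 0 entries for Rnf215 or Mief2. Dner had 2 circRNA entries, with 34 and 49 reads over the 24 libraries and at most 5 in any library.

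The libraries held 7.94 to 14.7 M reads over the 6 RNA classes of the authors' mapping order, of which the miRNA table took 5.66%. Libraries 1 to 3 of every group were read on sequencing lane 6 and libraries 4 to 6 on lane 7, so lane and group were balanced. Reads on mature miRNAs known from particular cells were scaled to the total of the 6 classes (RPM). The 4 of muscle (miR-143-3p, miR-145a-5p, miR-133a-3p and miR-1a-3p) together had 4.98 to 34.8 RPM per library. The 5 of epididymal epithelium had 0.182 to 2.26 RPM, and the liver marker miR-122-5p had 0 to 0.446. The 3 of sperm had 0 to 0.855 RPM, the 5 of leukocytes 0.101 to 1.42 and the 3 of erythrocytes 0 to 0.293. The erythrocyte markers miR-451a and miR-144-3p and the leukocyte marker miR-155-5p were at 0 reads in every library. The ranges of each list overlapped between the 4 groups, and the part of these cells in the members' values was not tested. Values scaled to the reads of each library do not give the number of vesicles. Fewer vesicles with an RNA and less of it per vesicle cannot be told apart in such libraries.

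Over the 24 libraries, mir-3060 had 726914 reads, or 4.76% of the miRNA table. The mir-5126 hairpin had 710337 reads (4.65%) and mir-5100 had 418071 (2.74%). Just above them stood mir-2137 with 1156858 reads. Between them stood mir-3470b with 545465 and mir-6236 with 436912, and just below them mir-3473c with 387130. The 3 members together took 12.3% ± 1.9997 of the miRNA reads of a library (SD over 24 libraries, range 8.61 to 17.3%).

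Nearly all of these reads were on the hairpin entries. For mir-3060 the mature entries had 2 reads in all, 1 on the 5p arm in control library 4 and 1 on the 3p arm in DEHP library 6. That is 0.000275% of the reads of its hairpin and arms together (exact Clopper-Pearson 95% interval 3.33e-05 to 0.000994%). Mature miR-5126 had 5657 reads, 0.790% of its hairpin and mature reads (0.770 to 0.811%), and mature miR-5100 had 2140, or 0.509% (0.488 to 0.531%). These intervals cover counting error only, since PCR copies are not independent molecules. Other well-read hairpins covered the whole range, from 0 mature reads for mir-1961 and mir-1928 to 1143908 for mir-2137. Over the whole miRNA table, mature entries took 12.2% of the reads.

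**Figure D1:**
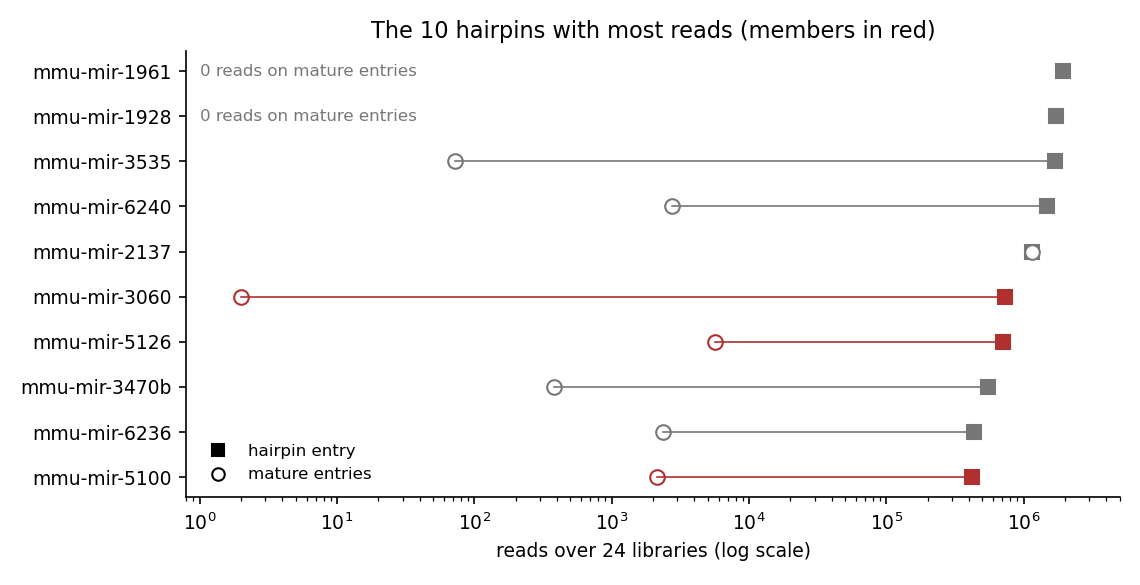
Reads over the 24 libraries (log scale) on the hairpin entry (filled squares) and on the mature entries (open circles) of the 10 hairpins with the most reads, the 3 members in red. The members' mature entries had 2, 5657 and 2140 reads, far below their hairpins, whereas those of mir-2137 had 1143908.

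The mir-3060 hairpin had its highest mean in the control libraries, which stood at 2374, 3124 and 4060 CPM (counts scaled to normalised library totals; lowest, median and highest). It stood at 2198, 2650 and 4569 CPM with DBP, at 1750, 2304 and 2840 with DEHP, and at 1871, 2582 and 3378 with the mixture. The means were 3146 ± 700 CPM in controls, 2876 ± 854 with DBP, 2596 ± 695 with the mixture and 2245 ± 376 with DEHP (SD, n = 6 each). All 4 groups overlapped, and each neighbouring pair in this order differed by less than the smaller SD. Neighbours in an order of means are close by the way they are chosen. The ends of the order, control and DEHP, differed by more than either SD (700 and 376 CPM).

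The mir-5126 hairpin stood at 1679, 2982 and 4332 CPM in controls, at 1554, 2655 and 4569 with DBP, at 1571, 2157 and 3455 with DEHP, and at 1245, 2439 and 4018 with the mixture. Its means were 2985 ± 1128 CPM in controls, 2753 ± 1130 with DBP, 2416 ± 954 with the mixture and 2374 ± 822 with DEHP. Its SD was the largest of the 3 hairpins in every group, and its ranges overlapped between all groups. As a percent of the mean, the DBP SD was 41.0% for mir-5126 and 43.6% for mir-5100.

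The mir-5100 hairpin had its lowest mean in the controls. It stood at 949, 1214 and 1950 CPM in controls, at 1168, 1427 and 3126 with DBP, at 1033, 1728 and 2028 with DEHP, and at 951, 1763 and 2703 with the mixture. The means were 1338 ± 414 CPM in controls, 1641 ± 403 with DEHP, 1713 ± 642 with the mixture and 1807 ± 788 with DBP. For mir-5126 and mir-5100, too, each neighbouring pair differed by less than the smaller SD and all groups overlapped. The ends of the order for mir-5126, controls and DEHP, also differed by less than the smaller SD. For mir-5100 the ends, DBP and controls, differed by more than the control SD (414 CPM) and less than the DBP SD (788 CPM). Of all 7454 tested features, the libraries did not overlap with control for 0.107% with DBP, 0.107% with DEHP and 0.0805% with the mixture.

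**Figure D2:**
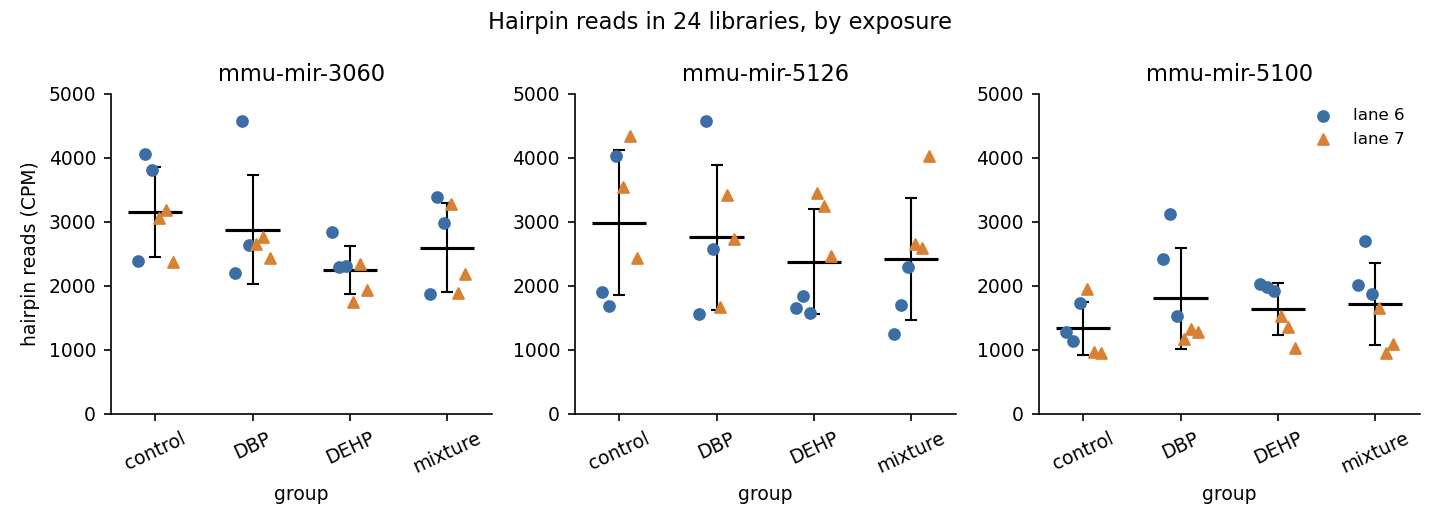
CPM of each hairpin in each library, by group; points are libraries, bars the mean and SD over 6 libraries. The 4 groups overlap for every hairpin; mir-3060 has its lowest mean with DEHP (2245 CPM) and mir-5100 its lowest in controls (1338 CPM).

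Within groups mir-3060 was the steadiest, with a coefficient of variation of 24.99%, place 31 from the lowest among the 191 hairpins that passed the filter on low counts. The other members, at 38.6% for mir-5126 and 36.0% for mir-5100, were close to the median hairpin at 39.3%. The difference between lanes was not removed from these values. Over the 12 libraries of lane 6, all groups together, it was 28.5% for mir-3060, 46.8% for mir-5126 and 28.4% for mir-5100. On lane 7 it was 20.6%, 24.8% and 24.7%, so the lead of mir-3060 over mir-5100 was not seen within lane 6.

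None of the exposure comparisons called a member. At an adjusted p under 0.05 in edgeR's quasi-likelihood test, 0 of the 7454 tested features were called for DBP, DEHP or the mixture against control (0% each), and DESeq2 and limma-voom also called 0. At an unadjusted p under 0.05, 367, 215 and 203 features passed (4.92%, 2.88% and 2.72% of those tested).

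For DEHP against control, mir-3060 had the smallest p of the members. Its level was 0.712 of the control level, a log2 difference of -0.49 ± 0.22 (SE; 95% interval -0.94 to -0.03), with an unadjusted p of 0.0363 and an adjusted p of 0.999 in edgeR. In edgeR the unadjusted p was 0.0114 with the miRNA table alone (log2 difference -0.58, adjusted p 0.969) and 0.0384 with DESeq2 size factors. The unadjusted p was 0.0560 with plain library totals, 0.0800 with limma-voom and 0.0974 without a filter on low counts. None of the 6 DEHP libraries was above the control mean, although the groups overlapped. It ranked 129 by p of the 7454 features, and the difference was -0.46 within lane 6 and -0.53 within lane 7. It was the only member of 3 with an unadjusted p under 0.05, against 2.88% of all features, and 3 of the 191 tested hairpins had such a p. The corresponding differences were -0.37 ± 0.30 for mir-5126 (-0.98 to 0.25) and 0.24 ± 0.24 for mir-5100 (-0.25 to 0.74). The median of the 3 was -0.37 and that of all tested features -0.02.

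With DBP the log2 differences from control were -0.13 ± 0.22 for mir-3060 (95% interval -0.58 to 0.32), -0.07 ± 0.30 for mir-5126 (-0.68 to 0.55) and 0.35 ± 0.24 for mir-5100 (-0.15 to 0.85). Of the 3 members, 0 had an unadjusted p under 0.05. The lowest was that of mir-5100, 0.159 (adjusted p 0.934 in edgeR), and 3 of 6 DBP libraries were above the control mean.

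With the mixture they were -0.27 ± 0.22 for mir-3060 (-0.73 to 0.18), -0.34 ± 0.30 for mir-5126 (-0.95 to 0.28) and 0.28 ± 0.24 for mir-5100 (-0.22 to 0.78). Again 0 of 3 had an unadjusted p under 0.05. All 3 comparisons share the control libraries, so the like signs of the members in them are not independent.

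**Figure D3:**
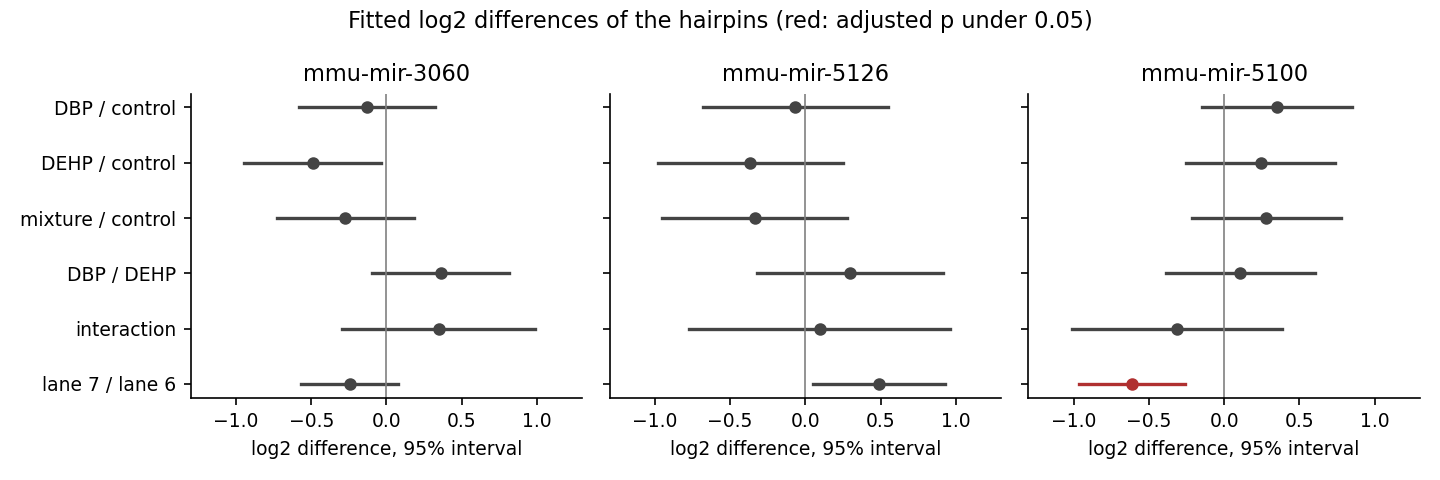
Fitted log2 differences of the 3 hairpins with 95% intervals for the exposure comparisons and for lane 7 against lane 6; red marks an adjusted p under 0.05 in edgeR. Of the exposure intervals only that of mir-3060 with DEHP (-0.94 to -0.03) leaves out 0, before adjustment; the red point is the lane difference of mir-5100 (-0.61).

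DBP and DEHP are diesters of the same acid that differ in their alcohol chains, straight butyl chains in DBP and branched ethylhexyl chains in DEHP. The pair was compared at the same mass dose and time, which is not the same molar dose. It was the only pair of single compounds, and p-values were adjusted over all 7454 features. The log2 difference of DBP over DEHP was 0.36 ± 0.22 for mir-3060 (95% interval -0.10 to 0.81), 0.30 ± 0.30 for mir-5126 (-0.32 to 0.92) and 0.11 ± 0.24 for mir-5100 (-0.39 to 0.60). The adjusted p was 0.9999 for each in edgeR, and 0 of the 7454 features were called (0%). The intervals do not show that the compounds act alike. At an unadjusted p under 0.05, 264 features passed (3.54%), and 0 of the 3 members. The DBP and DEHP libraries did not overlap for 0.0939% of features and overlapped for all 3 members.

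The mixture was also set against the sum of the single exposures. The departure on the log2 scale was 0.35 ± 0.31 for mir-3060 (-0.30 to 0.99), 0.09 ± 0.42 for mir-5126 (-0.77 to 0.96) and -0.31 ± 0.34 for mir-5100 (-1.01 to 0.39). The edgeR test called 0 of 7454 features here (0%), and 301 had an unadjusted p under 0.05 (4.04%), with 0 of the 3 members among them. By the criterion of the labels, a fold of at least 1.5 with p under 0.01, 0.724% of features passed with DBP, 0.389% with DEHP and 0.416% with the mixture. For DBP against DEHP it was 0.376%, and for the departure 0.429%. None of the 3 members did in any of these comparisons.

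The mature entries that passed the filter gave no call either. Mature miR-5126 averaged 23.6 ± 9.54 CPM in controls, 21.5 ± 9.71 with DBP, 18.2 ± 5.50 with DEHP and 21.4 ± 6.19 with the mixture. Mature miR-5100 averaged 6.58 ± 4.09, 9.21 ± 4.77, 6.97 ± 3.87 and 9.39 ± 5.54 CPM in the same order. The arms of mir-3060 did not pass. Mature miR-5100 differed from control by 1.76 with DBP (unadjusted p 0.0162, adjusted p 0.303 in edgeR), 0.96 with DEHP and 1.89 with the mixture (unadjusted p 0.0106, adjusted p 0.632) on the log2 scale in lane 6 alone. In lane 7 alone it differed by -0.52, -0.42 and -0.66, and over both lanes by 0.46, 0.07 and 0.48. The lane 6 controls, libraries 1 to 3, had 65, 18 and 28 reads on mature miR-5100. The lane 7 controls, libraries 4 to 6, had 133, 120 and 130. The comparisons within a lane share its controls. The difference between lanes in these log2 differences was not tested.

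The only call among the members with TMM scaling was between lanes. The mir-5100 hairpin had 1979 ± 563 CPM in the 12 lane 6 libraries and 1271 ± 314 in the 12 lane 7 libraries. That is a log2 difference of -0.61 ± 0.17 (adjusted p 0.0222 in edgeR), with 0 of 12 lane 7 libraries above the lane 6 mean. The call was lost with plain library totals in place of TMM scaling (-0.33, adjusted p 0.0667 in edgeR) and without a filter on low counts (-0.57, adjusted p 0.205). Lane called 12.3% of all features and 19.9% of the 191 tested hairpins, 23 of them higher on lane 7 and 15 lower.

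The other members were not called for lane with TMM scaling. The mir-5126 hairpin had 2219 ± 1037 CPM on lane 6 and 3045 ± 754 on lane 7, a log2 difference of 0.49 ± 0.21 (unadjusted p 0.0298, adjusted p 0.134 in edgeR). Without DBP library 2 it was 0.62, with an adjusted p of 0.0406, and with plain library totals it was 0.80, with an adjusted p of 0.00501. For mir-3060 the lane difference was -0.25 ± 0.16 (adjusted p 0.331 in edgeR), and 0.055 with plain library totals. Which member differed most between lanes therefore depended on the scaling. An unadjusted p under 0.05 was reached by 2 of the 3 members and by 26.5% of all features. The lanes overlapped for all 3 members, and did not for 0.0134% of all features. Of the members mir-5100 passed the fold and p criterion of the labels, as did 12.5% of all features.

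The library numbers within lane 7 were also unlike. The mir-5100 hairpin averaged 1577 ± 324 CPM in the 4 libraries numbered 4, which were on lane 7, and 1118 ± 172 in the 8 libraries numbered 5 or 6. With a term for libraries 5 and 6 added to the fit, its lane difference was -0.27 (unadjusted p 0.204 in edgeR). Libraries 5 and 6 were all on lane 7, so this term and lane overlap. The difference between libraries 4 and libraries 5 and 6 was not tested. What the numbers stand for is not given in the labels.

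**Figure D4:**
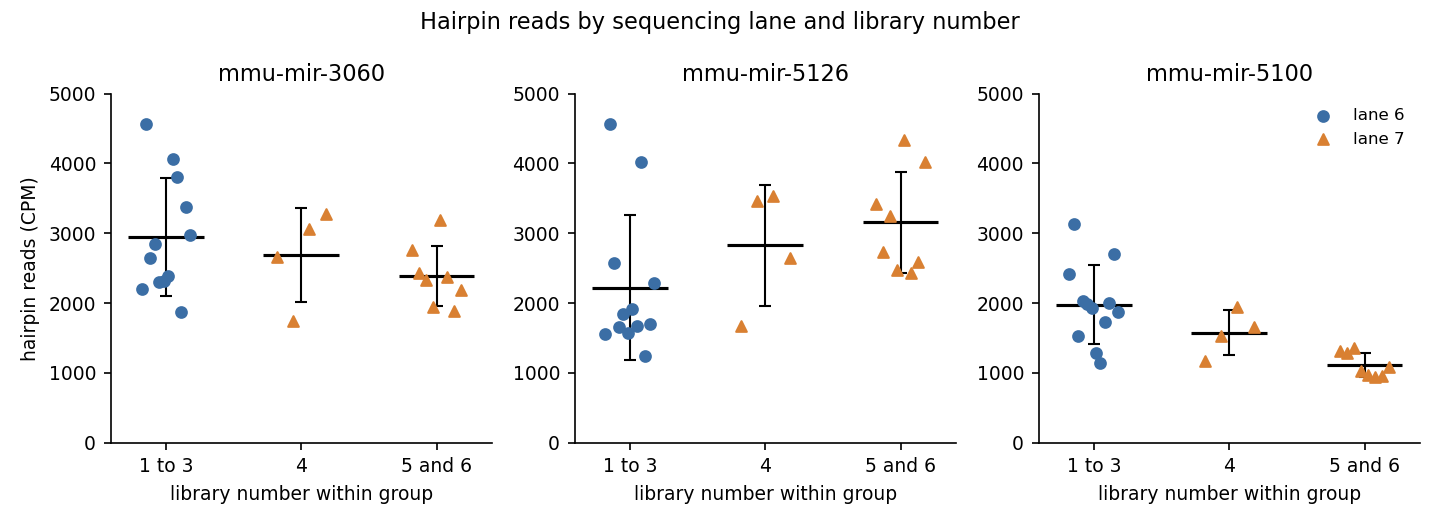
CPM of each hairpin in each library, set out by library number as 1 to 3, 4, and 5 and 6. Points are libraries (12, 4 and 8), bars the mean and SD. Numbers 1 to 3 were on lane 6 and 4 to 6 on lane 7. The mir-5100 hairpin averages 1979 CPM in libraries 1 to 3, 1577 in libraries 4 and 1118 in libraries 5 and 6.

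The exposure differences of mir-5100 were larger on lane 6. There they were 0.75 with DBP, 0.52 with DEHP and 0.66 with the mixture on the log2 scale, whereas on lane 7 they were -0.05, -0.01 and -0.07. A difference between lanes in the exposure effect was not tested. The mir-5126 difference with DBP was 0.18 on lane 6 and -0.40 on lane 7. Those of mir-3060 were alike on both lanes, at -0.15 and -0.14 for DBP and -0.32 and -0.23 for the mixture.

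Across the 24 libraries the 3 hairpins did not rise and fall as a set. The Pearson correlation of log2 CPM was 0.26 for mir-3060 with mir-5126 (rho 0.26), 0.33 for mir-3060 with mir-5100 (rho 0.23) and -0.20 for mir-5126 with mir-5100 (rho -0.26). Over these 3 pairs the adjusted permutation p was 0.326, 0.326 and 0.338 for r, and 0.274 for each rho. Without the 2 libraries farthest from the median, r was 0.24, 0.27 and -0.39. Within lane 6, mir-3060 and mir-5126 had r = 0.70 (adjusted permutation p 0.0313; rho 0.66, adjusted permutation p 0.0723) and without the 2 farthest libraries 0.75. Within lane 7 the same pair had r = 0.12 (adjusted permutation p 0.720). As shares of the miRNA reads, the lane 6 value was 0.57 (adjusted permutation p 0.168) and rho was 0.45. On that scale r without the 2 farthest libraries was 0.16. For mir-5126 and mir-5100, r was 0.19 on lane 6 and 0.17 on lane 7, of opposite sign to the pooled value. On lane 6 that sign rested on 2 libraries: rho was -0.18, and r without the 2 farthest libraries was -0.32. On lane 7 they were 0.32 and 0.45, of the same sign as r.

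The mature entries followed their hairpins unequally. For mir-5126 the mature entry was, of all 7453 other features, the one most like the hairpin, with r = 0.89 over 24 libraries (0.92 on lane 6 and 0.78 on lane 7). On lane 7 its rho was 0.62, and in libraries 5 and 6 its r was 0.55 (rho 0.40). For mir-5100 the mature entry had r = 0.28 over 24 libraries (0.58 on lane 6 and 0.14 on lane 7) and came at place 2006. In libraries 5 and 6 it had r = 0.059. These are descriptions, since hairpin and mature entries share libraries, depth and sequence.

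**Figure D5:**
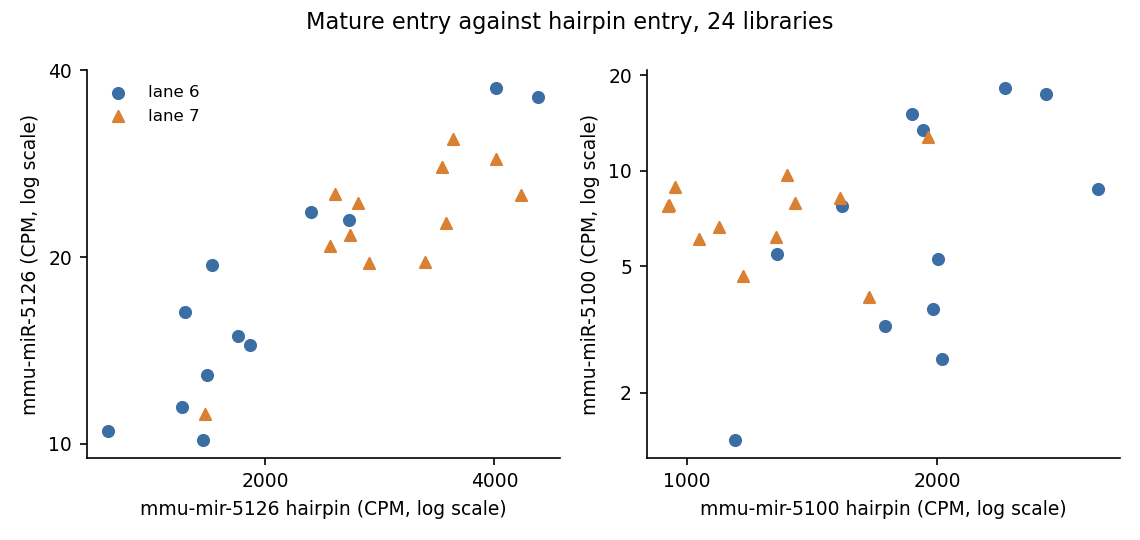
CPM of the mature entry against CPM of the hairpin in each library (both axes log scale) for mir-5126 and mir-5100, coloured by lane. The mir-5126 points lie along a line (r = 0.89 of log2 CPM) and the mir-5100 points scatter (r = 0.28).

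The features most like mir-5100 were 3 piRNA entries of 32 bases, piR-mmu-48979595, piR-mmu-4567769 and piR-mmu-5039308, with r = 0.92, 0.92 and 0.91 over 24 libraries. Within lane 6 they had 0.87, 0.85 and 0.86, and within lane 7 0.92, 0.91 and 0.88. After its mature entry, mir-5126 was most like piR-mmu-20794666 (r = 0.84) and piR-mmu-3964402 (r = 0.81). On lane 6 these had 0.85 and 0.81, and on lane 7 0.63 and 0.73. The mir-3060 hairpin was most like the circRNA mmu_circ_0009778 of Rxra, a nuclear receptor gene, with r = 0.73, and piR-mmu-3522467 and piR-mmu-2043167 with 0.72 and 0.69. Its values on lane 6 were 0.67, 0.57 and 0.61, and on lane 7 0.80, 0.91 and 0.83. In libraries 5 and 6 the same features had 0.81, 0.78 and 0.76 with mir-5100, and 0.44 and 0.64 with mir-5126. With mir-3060 they had 0.63, 0.86 and 0.81 there. The level of piR-mmu-2043167 was low, with a geometric mean of 2.25 CPM. All these features were picked by r over the same 24 libraries, so the values within parts of them are descriptions. The sequences of these piRNA entries were not used here.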

How the data were processed

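The authors deposited raw counts, whole numbers of reads per reference sequence, in 7 tables for each of the 24 libraries. Per the submitters' processing notes, reads were trimmed with cutadapt, aligned with STAR 2.7.6a and tested with edgeR. The sources used here do not give the genome build, the counting strand or the handling of reads with several matches. The row without a name and the unmapped column held 0 reads, and 0 pairs of libraries were identical.

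The 6 classes of the mapping order were joined, filtered with filterByExpr (7454 features kept) and fitted with edgeR 4.0.16 in R 4.3.3: TMM scaling (factors 0.625 to 1.31), terms for group and lane, two-sided quasi-likelihood tests, Benjamini-Hochberg adjustment over all features, threshold 0.05. The fit was tested on simulated data with 200 changed features. Unlike these data, the simulation had the same spread for every feature and no lane difference. Correlations used log2 CPM (prior count 2) with permutation tests of 100000 resamples, two-sided, in Python 3.11.15. Depth was 7.94 to 14.7 M reads per library. Labels do not say how libraries with a shared number relate.

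Named features are the members, their mature entries, 7 well-read hairpins, the 3 features most correlated with each member and entries of overlapping genes. Other hairpins named beside the members are their neighbours in rank, chosen after values were seen. The members, lists and rules were chosen with earlier results of these data known. Alternatives covered scaling (also limma 3.58.1 and DESeq2 1.42.0), filters, single lanes, added terms and each library left out.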

Additional observations from a re-analysis of the deposited data

Results flagged for a closer look

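Of 20 groups of 6 libraries tested for a library far from the others, 2 held one, and chance gives about 1 in 20. The mir-3060 hairpin had 4569 CPM in DBP library 2, against 2764 in the next highest DBP library, a gap of 0.761 of the group's range. Its place depended on the scaling: with plain library totals the library had 2847 RPM, below DBP libraries 5 (3407) and 6 (2961). As a share of the miRNA reads it was again the highest DBP library, at 6.43% against 4.95% in the next. In CPM the same library was also the highest DBP library for mir-5126 (4569) and mir-5100 (3126). Without that library the log2 difference of DBP from control was -0.28 in place of -0.13 (edgeR adjusted p 0.994). Mature miR-5100 had 18.2 CPM in DBP library 1, against 9.70 in the next, a gap of 0.629 of the range. Without it the log2 difference of DBP from control was 0.18 in place of 0.46.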

How the results depend on the processing

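Under the alternatives, library left out included, 0 of 567 exposure values of the 3 hairpins passed an adjusted p of 0.05 (lowest 0.366), and 18 turned sign. The DEHP difference of mir-3060 stayed negative in all of its alternatives, but its unadjusted p in edgeR was 0.212 with lane 6 alone and 0.141 with lane 7 alone, and ran from 0.0192 to 0.0824 with 1 library left out. With plain library totals, mir-5100 DBP over DEHP was -0.028 and the lane differences were 0.055 for mir-3060, 0.80 for mir-5126 (adjusted p 0.00501 in edgeR), -0.33 for mir-5100 (adjusted p 0.0667), 0.60 for mature miR-5126 (adjusted p 0.0406) and 0.21 for mature miR-5100, with 1568 features called for lane. With the miRNA table alone, mature miR-5100 with DEHP was -0.00118 and lane called 61, among fewer features tested. Without a filter on low counts, 71 features were called for DBP, 6 for DEHP, 5 for the mixture, 3 for DBP over DEHP and 20 for the departure from the sum. There the departure of mature miR-5100 was 0.049, the mir-5100 lane difference -0.57 (adjusted p 0.205), and 0 members met the criterion of the labels for lane. With limma-voom the lane difference of mature miR-5100 was 0.12 and lane called 2014. With the term for libraries 5 and 6, the mir-5100 lane difference was -0.27, 0 members met the criterion and lane called 3. For these changes the cause was not tested.

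With lane 6 alone, DBP against control was 0.18 for mir-5126 and 0.11 for mature miR-5126, and the departure for mir-5126 was -0.14. With lane 7 alone, mir-5100 was -0.052 with DBP, -0.011 with DEHP and -0.074 with the mixture, and mature miR-5100 was -0.52, -0.42 and -0.66. There DBP over DEHP was -0.22 for mir-5126, -0.041 for mir-5100, -0.19 for mature miR-5126 and -0.10 for mature miR-5100, and the departure of mature miR-5100 was 0.28. The correlation of mir-3060 with mir-5126 was 0.70 on lane 6. That of mir-5126 with mir-5100 was 0.19 on lane 6, 0.17 on lane 7, 0.15 in libraries 1 to 4 and 0.17 in libraries 5 and 6; the last splits were chosen after seeing the data.

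Leaving out 1 library at a time, the following ranges crossed 0 or a threshold. For mir-5126 they were -0.37 to 0.16 with DBP, -0.00197 to 0.45 for DBP over DEHP, -0.13 to 0.40 for the departure and 0.43 to 0.62 for lane, where only DBP library 2 brought the adjusted p under 0.05. For mir-5100, DBP over DEHP ran from -0.044 to 0.16, its lane difference ran from -0.73 to -0.54, called each time, and 0 to 1 members met the criterion for lane. For mature miR-5126 they were -0.38 to 0.17 with DBP and -0.27 to 0.11 with the mixture. For mature miR-5100 they were -0.21 to 0.37 with DEHP, -0.35 to 0.26 for the departure and -0.20 to 0.14 for lane. Features called for lane ran from 575 to 1423.

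With the replicate number as a block, mir-3060 with DEHP was -0.45 (edgeR p 0.0326, adjusted p 0.9996), and the block changed no call in the exposure comparisons. Libraries with the same number correlated from -0.25 to 0.64 in their deviations from the group means, 28 of 36 pairs over 0.1. Their median was 0.28, against -0.07 for libraries with different numbers. In deviations from the group and lane means these medians were 0.12 and -0.02, and 19 of 36 pairs were over 0.1. Only 5 of 24 libraries correlated best with their own number, and 4 with lane removed, so the numbers were not taken to pair the mice.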
